A study of Mus musculus with 12 samples.

Results

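Opposite-strand transcripts are genes that a nomenclature committee named after a neighbour on the other DNA strand, with the ending os. In this liver data set 3 of them, Slc7a6os, Dnm3os and Hoxb3os, were measured together with the partner genes Slc7a6, Dnm3 and Hoxb3. Of 38087 genes in the count table, 30 had a symbol ending in os with optional digits, and for 9 of these the remaining letters equalled another symbol of the table. The members were selected on their measured counts, as those of the 9 with 50 or more counts over all 12 libraries, so their being expressed is no result. Hoxb3os lay just inside that limit with 56 counts, and Pax6os1, with 2, was the nearest outside it. Vax2os1 and Vax2os2 had 1 count each. Crxos1, Emx2os and Six3os1 had 0 counts in all libraries together, which allows up to 3 counts, or 0.0127 CPM (counts scaled to a common library size), as far as counting error goes. The partners of these 6 are regulators of eye and forebrain development, and they were themselves at 0 to 11 counts.

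The libraries came from livers of male germ-free C57BL/6j mice, animals that carry no microbes, aged 13 to 16 weeks and labelled zeitgeber time 2, the hours since lights on. The ghrelin group (n = 6) had rat ghrelin, a stomach peptide that stimulates appetite and growth hormone release, injected under the skin at 10 µg per mouse on each of 5 days, and the PBS group (n = 6) had buffered saline. Both groups share the absence of microbes, the sex and the strain, and no label says that each library is a separate animal. If some are not, part of the spread behind the p-values is technical only, and the p-values could be too small.

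An antisense or opposite-strand transcript can share exons with its partner, sit in an intron of it, or only lie next to it. Some such transcripts are non-coding RNAs that act on the neighbouring locus, some are precursors of microRNAs, and some are ordinary coding genes that received the name from their position. Many non-coding ones are degraded in the nucleus by the RNA exosome, so their level in RNA from a whole tissue is often low. Whole liver RNA comes mostly from hepatocytes, and in it fewer cells of a type and less RNA per cell cannot be told apart.

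The positions below are those of GENCODE M21 on GRCm38, the assembly also called mm10, and exon lengths count each annotated exonic base once. Slc7a6os lies on chromosome 8 from 106200717 to 106210935 on the minus strand, with 4220 exonic bases. It is annotated as protein-coding, and its product is known as a factor that helps RNA polymerase II reach the nucleus. Slc7a6, which encodes a transporter subunit for basic and neutral amino acids, lies at 106168857 to 106198706 on the plus strand. The 3′ ends of both genes face each other across a gap of 2010 bp and share no exonic base. The other end of Slc7a6os meets Prmt7, an arginine methyltransferase gene at 106210936 to 106252794 on the plus strand, with the annotated 5′ ends 1 bp apart.

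Dnm3os lies on chromosome 1 from 162217623 to 162225550 on the plus strand, as a single block of 7928 exonic bases annotated as antisense. It sits wholly within an intron of Dnm3, which spans 161982453 to 162478034 on the minus strand and encodes dynamin 3, a GTPase of membrane fission best known from neurons. The intron is 96901 bp long between annotated exons, and the exons of Dnm3 and Dnm3os share 0 bases. The transcript is the precursor of miR-199a and miR-214, which are known from mesenchymal cells and from stellate cells, the collagen-producing cells of the liver. Mir199a-2 lies at 162217814 to 162217923 and Mir214 at 162223368 to 162223477, each a hairpin of 110 bases inside the Dnm3os exon.

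Hoxb3os lies on chromosome 11 from 96343072 to 96354691 on the minus strand and is annotated as antisense, with 4201 exonic bases. Hoxb3, a homeobox transcription factor of the Hoxb cluster that patterns the body axis, spans 96323326 to 96347930 on the plus strand. Their exons share 2250 bases, which is 53.6% of those of Hoxb3os and 52.9% of those of Hoxb3. Hoxb3os also runs over the whole of Hoxb2 (96350525 to 96354012, plus strand) and shares 953 exonic bases with it. The 3 pairs thus stand for 3 arrangements, of which only that of Hoxb3os has exons on both strands.

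**Figure D1:**
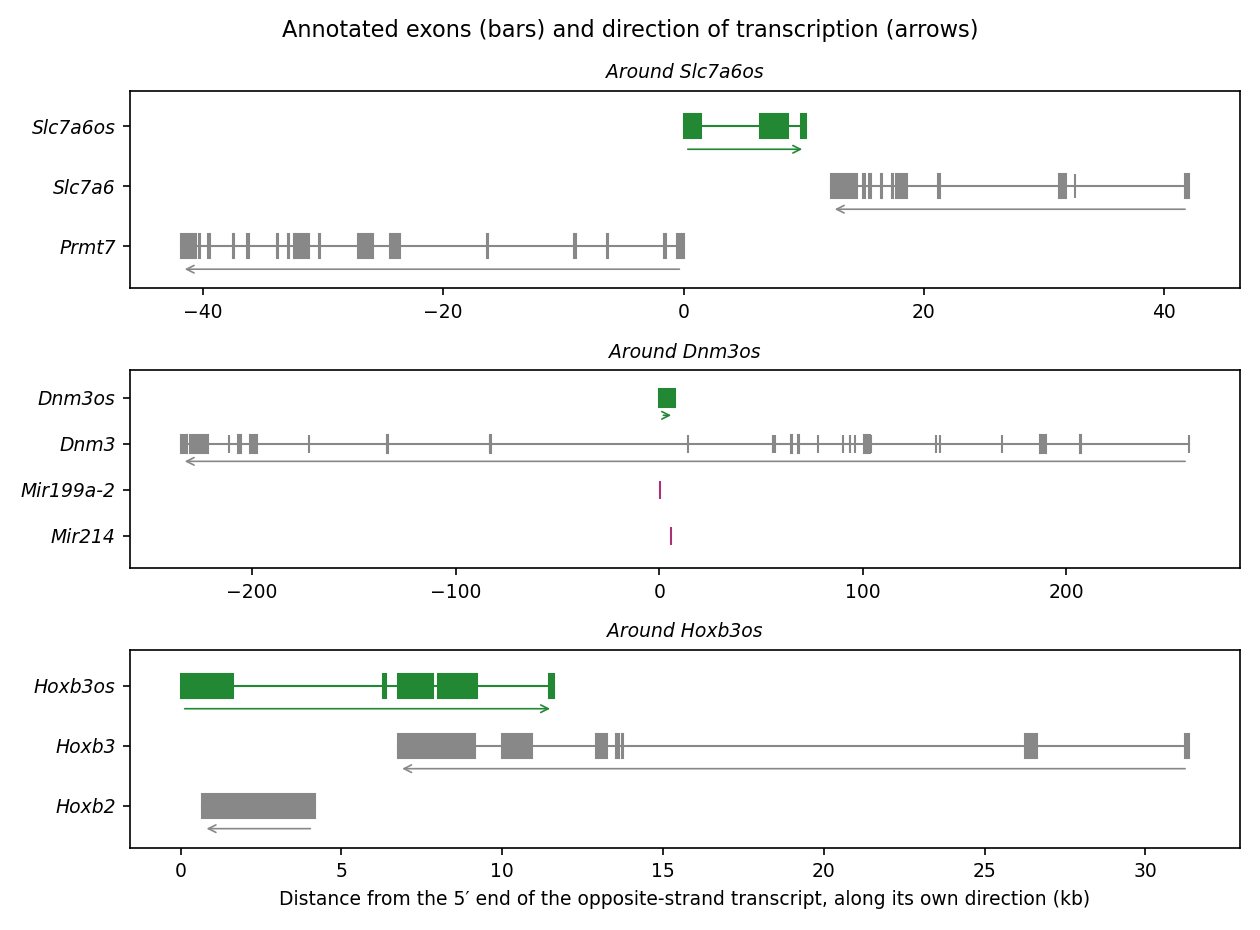
Annotated exons (bars) and gene spans (lines) around Slc7a6os, Dnm3os and Hoxb3os, by distance in kb from the 5′ end of the opposite-strand transcript along its own direction; arrows give the direction of transcription, and both microRNA hairpins run with Dnm3os. Slc7a6os abuts Prmt7 and lies 2010 bp from Slc7a6, Dnm3os sits in an intron of Dnm3, and Hoxb3os shares exons with Hoxb3 and Hoxb2.

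The mature microRNAs that Dnm3os carries are shown because they are the known products of that transcript. They come from RefSeq (GRCm38.p6), are written 5′ to 3′, and have bases 2 to 8, the seed that pairs with target messages, in capitals.
miR-199a-5p: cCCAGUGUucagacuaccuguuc
miR-199a-3p: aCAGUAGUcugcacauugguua
miR-214-5p: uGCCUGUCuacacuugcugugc
miR-214-3p: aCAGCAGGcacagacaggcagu
No 2 of these 4 seeds are the same. The libraries were not made for small RNA, and the hairpins had few counts, 9 over all libraries for Mir214 and 2 for Mir199a-2, so mature microRNA levels were not measured here.

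The promoter window of Dnm3os, from 250 bases before to 50 bases after the RefSeq start, is shown for its contrast with that of Slc7a6os. It is chr1:162217373-162217672 on the plus strand of GRCm38.p6, with matches of CANNTG, the E-box bound by basic helix-loop-helix factors, in capitals.
Dnm3os window: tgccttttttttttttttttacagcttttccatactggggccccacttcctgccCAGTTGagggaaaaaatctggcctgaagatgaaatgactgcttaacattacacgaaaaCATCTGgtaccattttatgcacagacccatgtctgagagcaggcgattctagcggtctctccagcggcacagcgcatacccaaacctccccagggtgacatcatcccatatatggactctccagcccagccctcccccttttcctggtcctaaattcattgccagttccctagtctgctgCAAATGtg
CANNTG reads the same on both strands and matched 3 times, in a motif that 72.3% of 32851 such windows hold at least once. TATAAA, searched on both strands, had 0 matches there and is held by 13.6% of windows. The Dnm3os window has 5 CpG dinucleotides, where the median window has 7. The window of Slc7a6os has 30, more than 88.3% of windows, and that of Prmt7 has 39. These windows overlap from 106210884 to 106211103, most of each, so their CpG counts are largely of the same bases. The window of Hoxb3os has 19. It follows the RefSeq start and lies at 96353345 to 96353644, which is inside the GENCODE spans of both Hoxb3os and Hoxb2. It is thus not the region before the GENCODE 5′ end of Hoxb3os. A match, or none, describes these letters only.

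Slc7a6os was the abundant member. Its counts in PBS 1 to PBS 6 were 259, 331, 267, 229, 337 and 293, and in ghrelin 1 to ghrelin 6 they were 247, 215, 293, 279, 205 and 270. After scaling for library size this was 13.6 ± 1.10 CPM in PBS and 13.6 ± 0.84 CPM in ghrelin (SD, n = 6 each). The groups overlapped over nearly their whole range, and PBS held both the lowest library, PBS 3 with 12.3 CPM, and the highest, PBS 2. The coefficient of variation was 6.86%, close to the 6.10% that counting error alone gives at this depth. Prmt7, which shares the start region, stood at 12.8 ± 1.17 CPM for PBS and 13.1 ± 2.34 CPM for ghrelin.

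Slc7a6 was near the limit of detection. It had 11, 17, 7, 8, 6 and 3 counts in PBS 1 to PBS 6, and 2, 5, 12, 5, 11 and 9 in ghrelin 1 to ghrelin 6. The groups overlapped, with PBS 2 highest and ghrelin 1 lowest. Per kb of exon, Slc7a6os stood at 3.22 ± 0.22 CPM per kb and Slc7a6 at 0.0890 ± 0.0464 CPM per kb (SD, n = 12). On summed counts per exonic kb the opposite-strand gene was 36.4-fold above its partner, and within single libraries 20.2-fold to 134-fold. It was 1.53-fold above Prmt7 on the same scale, with single libraries between 1.24-fold and 1.81-fold.

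Dnm3os was a rare transcript. PBS 1 to PBS 6 had 23, 12, 21, 28, 31 and 25 counts, and ghrelin 1 to ghrelin 6 had 20, 13, 17, 30, 31 and 25. That is 1.13 ± 0.34 CPM in PBS and 1.23 ± 0.41 CPM in ghrelin (SD, n = 6 each). The groups overlapped, with PBS 2 lowest and ghrelin 5 highest at 1.92 CPM. The coefficient of variation of 30.9% over 12 libraries lay above the 20.9% of counting error. The summed level of 5 stellate cell markers (Lrat, Reln, Dcn, Des, Col1a1) was 338 to 388 CPM in PBS and 314 to 380 CPM in ghrelin. Of the 5, 0 were called by the edgeR test described below, beside 0.106% of all tested genes. Mean CPM of Lrat was 23.3 without and 37.4 with ghrelin, a log2 fold change of 0.69 (unadjusted p = 0.0205 by edgeR), and that of Dcn was 141 and 122, a log2 fold change of -0.21 (unadjusted p = 0.0167). Of all tested genes, 13.4% had an unadjusted edgeR p under 0.05. The part of these markers in the Dnm3os level was not tested.

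Dnm3 had 11, 11, 24, 15, 16 and 5 counts in PBS 1 to PBS 6, and 9, 14, 11, 15, 9 and 12 in ghrelin 1 to ghrelin 6. The groups overlapped, and PBS held both the highest and the lowest library. Its mean was 0.656 ± 0.300 CPM in PBS and 0.633 ± 0.136 CPM in ghrelin (SD, n = 6 each). Per kb of exon, Dnm3os stood at 0.149 ± 0.046 CPM per kb against 0.0264 ± 0.0091 CPM per kb for Dnm3 (SD, n = 12). On summed counts per exonic kb the intronic transcript was 5.60-fold above the gene that surrounds it, and it was above in each of the 12 libraries, by 2.70-fold to 15.4-fold.

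Hoxb3os was the member nearest to absence. It had 3, 2, 5, 12, 6 and 9 counts in PBS 1 to PBS 6, and 3, 2, 2, 7, 3 and 2 in ghrelin 1 to ghrelin 6. The sums were 37 counts in PBS and 19 in ghrelin, but the groups overlapped, with PBS 2 the lowest library and ghrelin 4 above 4 of the 6 PBS libraries. Means were 0.302 ± 0.205 CPM in PBS and 0.169 ± 0.087 CPM in ghrelin (SD, n = 6 each). Hoxb3 had 6, 5, 6, 2, 5 and 10 counts in PBS 1 to PBS 6, and 4, 7, 4, 3, 8 and 4 in ghrelin 1 to ghrelin 6. PBS 4, the highest library for Hoxb3os, was the lowest for Hoxb3. Per exonic kb the pair was nearly even on summed counts, with Hoxb3os at 0.885 times Hoxb3, but single libraries ran from 0.289 to 6.07 times.

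Where exons lie on both strands, reads of either gene can be told apart only if counting used the strand, and the strand setting is not given in the sources used here. The kit marks strand. Among 64 genes of the table with at least 90% of their exonic bases under exons of an abundant opposite-strand gene, the median count per kb was 0.0279 of that of the covering gene, with 42 of the 64 under 0.05 and 7 over 0.5. Hoxb3os and Hoxb3 are the members with shared exons. Dnm3os lies in an intron of Dnm3, and total RNA can hold Dnm3 RNA with its introns still in. If counting ignored the strand, reads of that RNA would also count for Dnm3os. The ratio of Dnm3os to Dnm3 thus carries the same limit, which was not tested.

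**Figure D2:**
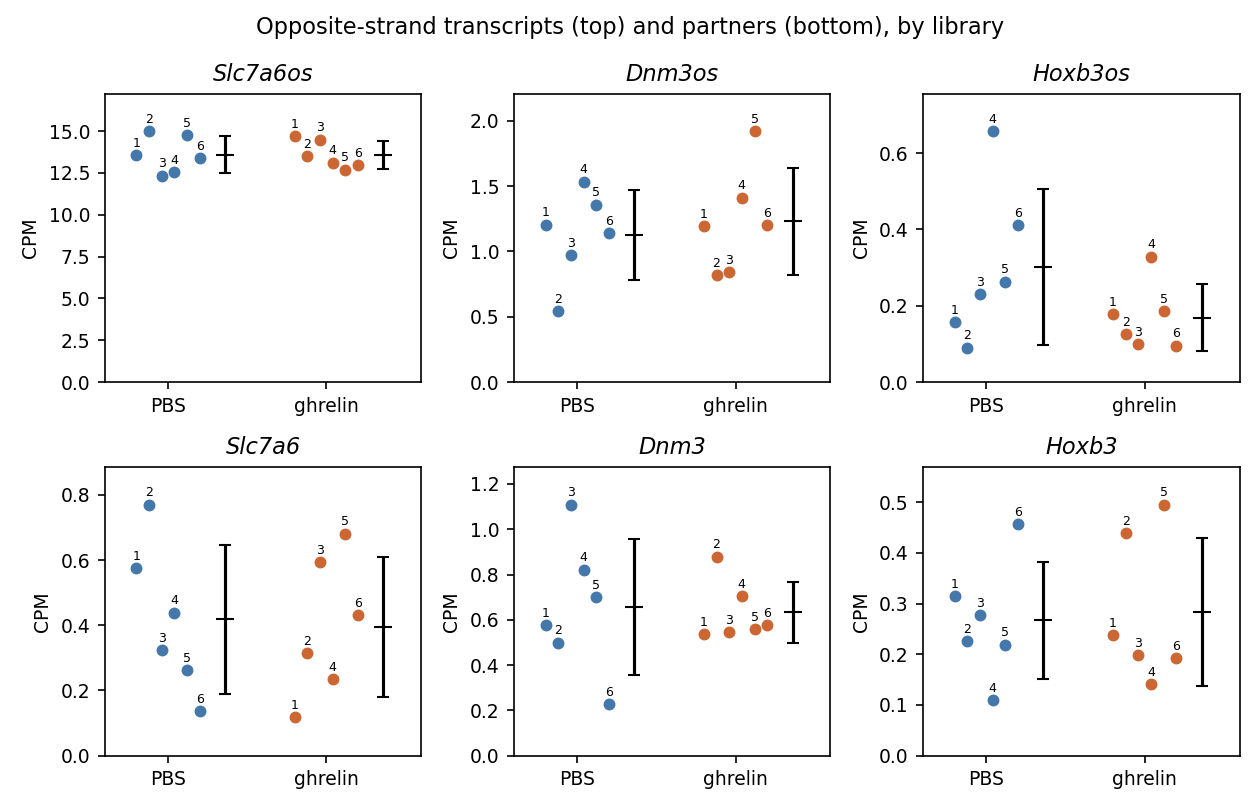
Library-scaled counts (CPM) of each opposite-strand transcript (top) and its partner (bottom); points are libraries with their number, and the bar beside each group is its mean with SD (n = 6). In all 6 panels the PBS and ghrelin points overlap, and only Slc7a6os is above 10 CPM.

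Whether ghrelin changed either side of a pair was asked with edgeR's quasi-likelihood test over all genes of the table. Over 14170 genes tested, 15 had a Benjamini-Hochberg adjusted p under 0.05, which is 0.106% of them. Slc7a6os, Dnm3os and Dnm3 passed the filter on low counts, and 0 of these 3 were called. The log2 fold change of Slc7a6os was -0.003 (SE 0.07, 95% interval -0.15 to 0.15, adjusted p = 0.994). That of Dnm3os was 0.13 (SE 0.26, interval -0.42 to 0.68, adjusted p = 0.869). That of Dnm3 was -0.05 (SE 0.30, interval -0.69 to 0.59, adjusted p = 0.966). The interval of Slc7a6os is narrow, whereas those of Dnm3os and Dnm3 are wide enough to hold a log2 fold change above 0.5. DESeq2 gave unadjusted p-values of 0.633 for Dnm3os, 0.883 for Dnm3 and 0.968 for Slc7a6os, and left Dnm3os and Dnm3 without an adjusted p.

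Slc7a6, Hoxb3os and Hoxb3 did not pass the filter, so their values come from the same test without one, which called 63 of 27410 genes, or 0.23%. Again 0 of the 3 were called. Hoxb3os had a log2 fold change of -0.79 (SE 0.51, interval -1.83 to 0.26, unadjusted p = 0.133, edgeR adjusted p = 0.583). Slc7a6 had -0.07 (SE 0.43, interval -0.96 to 0.81) and Hoxb3 had 0.03 (SE 0.45, interval -0.90 to 0.95). Among neighbours, Prmt7 had 0.03 (SE 0.11) and Hoxb2 had 0.32 (SE 0.37, interval -0.43 to 1.08), and neither was called. At 2 to 17 counts per library, differences below about the width of these intervals were not detectable.

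**Figure D3:**
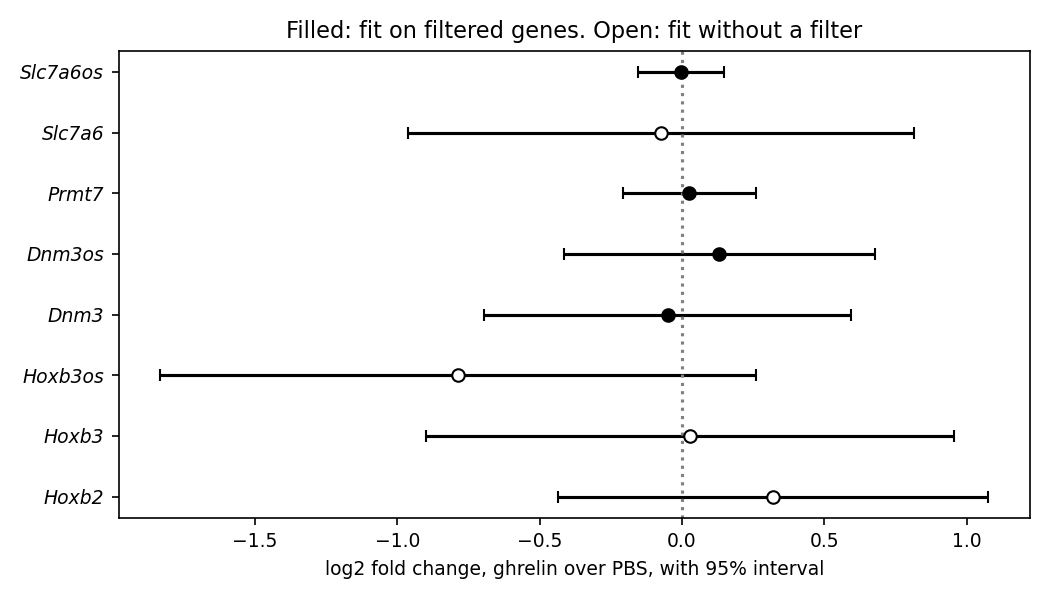
Log2 fold change of ghrelin over PBS with its 95% interval from edgeR's quasi-likelihood test, for each member, partner and close neighbour; filled points come from the test on filtered genes and open points from the test without a filter. Each interval includes 0, from the narrow one of Slc7a6os (-0.15 to 0.15) to that of Hoxb3os (-1.83 to 0.26).

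The balance within a pair was compared as the log2 ratio of its members in each library. For this, 3422 pairs of tested genes on opposite strands that overlap or lie within 5 kb of each other were fitted with limma, and 1 was called, or 0.0292%. Dnm3os over Dnm3 was not called, with a ghrelin minus PBS difference of 0.08 (SE 0.34, interval -0.65 to 0.80, limma adjusted p = 0.960). Slc7a6os over Prmt7 was not called either, with -0.01 (SE 0.11, interval -0.25 to 0.23). For pairs with a member below the filter, 0.5 was added to each count and all 924 assignments of libraries to groups were enumerated in an exact permutation test, two-sided. Slc7a6os over Slc7a6 differed by 0.07 (SE 0.49, exact p = 0.892) and Hoxb3os over Hoxb3 by -0.66 (SE 0.64, exact p = 0.348). These 2 exact p-values are unadjusted, and the smallest such a test can give is 0.00216.

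**Figure D4:**
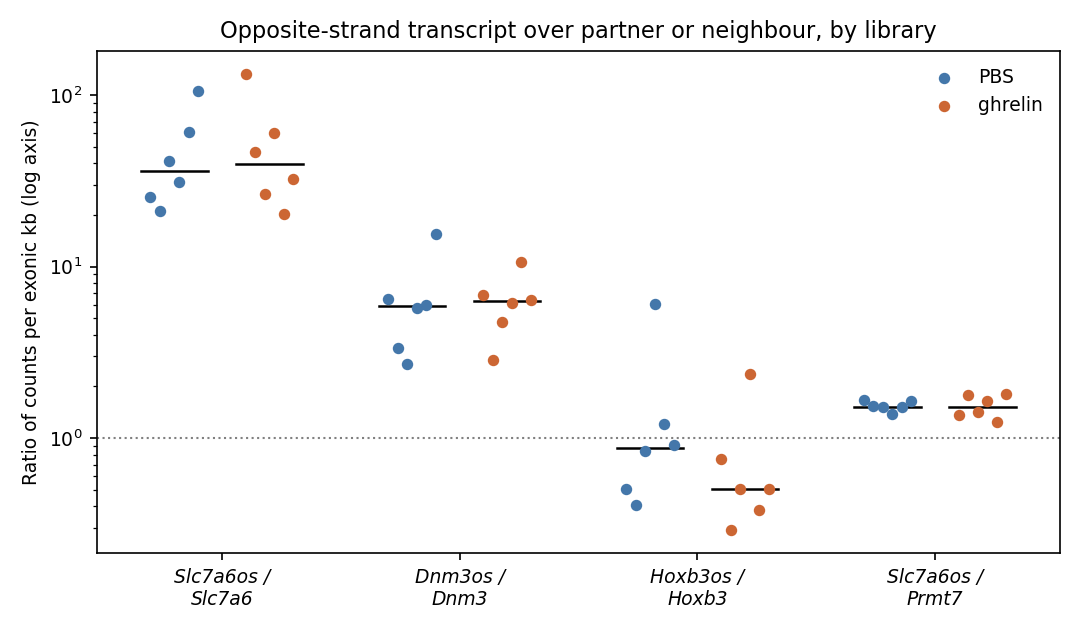
Ratio of counts per exonic kb, opposite-strand transcript over partner or neighbour, on a log axis; points are libraries, short lines are group medians (n = 6) and the dotted line marks equal levels. Slc7a6os lies 20.2-fold to 134-fold above Slc7a6, Dnm3os above Dnm3 in every library, Hoxb3os on both sides of Hoxb3, and Slc7a6os in a narrow band over Prmt7.

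Whether the members of a pair vary together between libraries was asked over the same 3422 pairs, with treatment means removed from log2 CPM and libraries permuted within groups. Of these pairs 0 had an adjusted p under 0.05 (0.0%), 322 an unadjusted one, and the median Pearson r was 0.10. Dnm3os and Dnm3 had r = 0.02 (permutation p = 0.944, adjusted p = 0.988) and Spearman's rho = 0.15 (permutation p = 0.651, adjusted p = 0.934) over 12 libraries. Within PBS r was 0.16 and within ghrelin it was -0.37. Without the 2 libraries farthest from the median of Dnm3, r was 0.23. Slc7a6os and Prmt7 had r = 0.55 (permutation p = 0.0577, adjusted p = 0.544) and rho = 0.47 (permutation p = 0.0687, adjusted p = 0.570). Their r was 0.69 within PBS, 0.56 within ghrelin, and 0.43 without the 2 libraries farthest from the median of Prmt7. Neither relation passed the adjustment. At the counts of Dnm3os and Dnm3, counting error limits how high a correlation could be seen.

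The exosome and its targeting complexes, which degrade many antisense transcripts in the nucleus, were read from a list of 26 gene symbols. It holds Skiv2l2 (Mtrex) and Papd5 (Tent4b) each under an older and a newer name. Of the 23 symbols found and tested, 0 were called, beside 0.106% of all tested genes. By edgeR 4 had an unadjusted p under 0.05 (13.4% of all tested genes did). In this list 7 had positive and 16 negative log2 fold changes, and the median was -0.08 beside 0.00003 over all genes. Exosc5, a subunit of the exosome ring, had the smallest edgeR adjusted p of the list, 0.242, at 12.7 CPM for PBS, 14.4 CPM for ghrelin and a log2 fold change of 0.19 (SE 0.06). Of 20 hepatocyte transcription factors, 19 were tested, 0 called and 3 at an unadjusted p under 0.05 by edgeR, near the same 13.4%, with a median log2 fold change of -0.03. Hepatocyte markers (Alb, Apoa1, Ttr, Serpina1a, Cyp2e1) summed to 68741 CPM or more in each library, and pancreatic acinar markers to at most 0.124 CPM. Of the hepatocyte markers, Cyp2e1 had an unadjusted p of 0.0208 by edgeR (log2 fold change -0.22) and was not called. Neutrophil markers (S100a8, S100a9, Ly6g, Retnlg) summed to 3.76 to 9.33 CPM in PBS and 0.816 to 4.40 CPM in ghrelin, with S100a8 at a log2 fold change of -1.44 (unadjusted p = 0.00123) and S100a9 at -0.99 (unadjusted p = 0.0167), neither called by edgeR. Their part in the results on the pairs was not tested.

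The 3 pairs can be set beside a wider set. GENCODE M21 gives os names to many genes that the count table carries under older model names, and by those names, matched by Ensembl identifier, 65 opposite-strand transcripts had 50 or more counts. This membership was chosen after seeing the data. For 64 of the 65 the partner had counts. The opposite-strand transcript stood above its partner per exonic kb in 16 of 64 pairs, and in the median pair the partner was 5.95-fold higher. Slc7a6os, at 36.2-fold on mean CPM per kb, had the third highest ratio, after Epb41l4aos (384-fold) and Hectd2os (36.4-fold). Dnm3os, at 5.64-fold, and Hoxb3os, at 0.864-fold, were also above the median pair. Hoxb3os had the lowest level per kb of the set. These are levels that the count limit helped to choose, and no test was made of them.

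**Figure D5:**
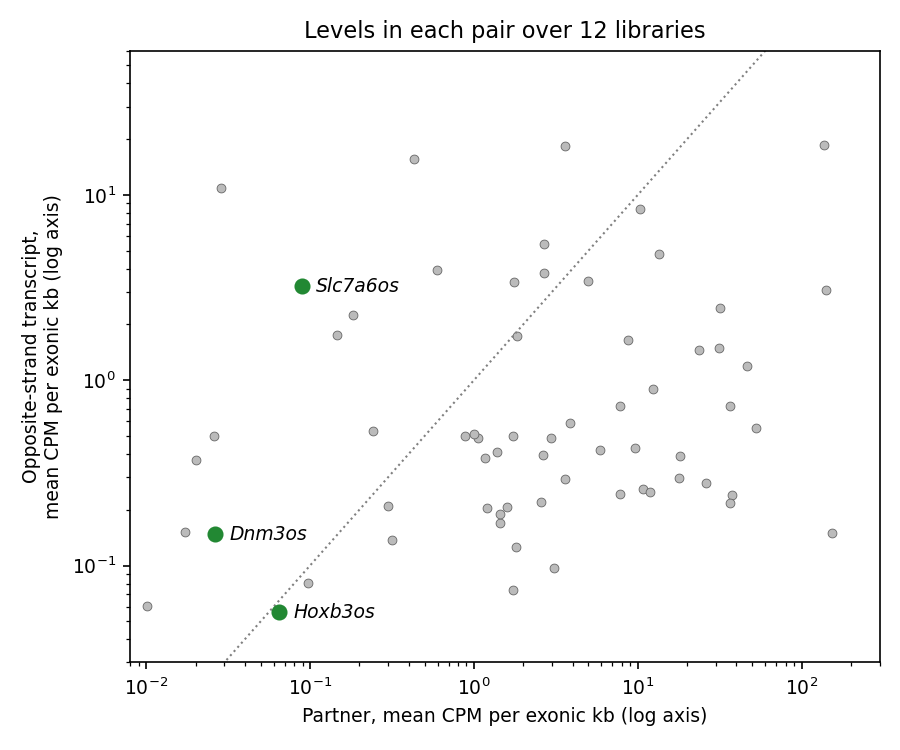
Mean CPM per exonic kb over 12 libraries of the opposite-strand transcript against its partner, for 64 pairs by GENCODE M21 names, on log axes; the dotted line marks equal levels and green points are the 3 pairs described. Most pairs lie below the line, and Slc7a6os and Dnm3os lie above it, both with partners under 0.1 CPM per kb.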

How the data were processed

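Liver RNA was measured in 12 libraries, 6 per group by the titles and treatment labels. The values deposited by the authors are raw read counts over the exons of each gene, and per the submitters' processing notes the aligner was STAR 2.4.0i and the build mm10. How reads were counted (tool, annotation release, strand setting, multiply mapping reads) is not given in the sources used here. Per the labels' protocols, libraries came from a stranded total RNA kit with ribosomal depletion. Totals were 15775059 to 22302533 counts per library.

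Genes were filtered with filterByExpr (minimum count 10, minimum total 15) and tested with edgeR 4.0.16 (TMM factors, quasi-likelihood, two-sided), with Benjamini-Hochberg adjustment over all genes and a threshold of 0.05. Pair ratios were tested with limma 3.58.1 and correlations with 100000 permutations, on log2 CPM with a prior count of 2. Annotation came from GENCODE M21, which matched 95.3% of identifiers, and sequences from RefSeq. Scripts were tested on simulated data. The members, gene lists and naming rule were chosen with earlier results of these data known. That rule takes pairs with the smallest p, the highest levels, the extreme ratios and correlations, the hepatocyte factors as partners and the members nearest the count limit. The members below the filter, and the set by later names, were added after the data were seen. Replicate numbers were not used as pairs in the main tests. Same-numbered libraries correlated at -0.08 to 0.27, values that alone cannot exclude pairing. Counting limits do not allow for PCR copies. Alternatives were DESeq2 1.42.0, other scalings and filters, the replicate block and leaving out each library. Some results that the naming rule takes in are not reported here.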

Additional observations from a re-analysis of the deposited data

Results flagged for a closer look

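In 4 of 26 groups of 6 values examined, 1 library lay far from the rest of its group by Dixon's ratio. Chance gives about 1 in 20 only where values are close to normally distributed. Ratios over few counts need not be, and they were examined here without a log scale. The number flagged therefore cannot be set against that rate. All 4 were ratios of counts per exonic kb with few counts under them. Slc7a6os over Slc7a6 was 134 in ghrelin 1, with the other ghrelin libraries at 20.2 to 60.4, and Slc7a6 had 2 counts there. Dnm3os over Dnm3 was 15.4 in PBS 6, with the others at 2.70 to 6.45, and Dnm3 had 5 counts there. Hoxb3os over Hoxb3 was 6.07 in PBS 4, with the others at 0.405 to 1.21, where Hoxb3os had 12 counts and Hoxb3 had 2. The same ratio was 2.36 in ghrelin 4, with the others at 0.289 to 0.759, from 7 and 3 counts.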

How the results depend on the processing

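In none of the alternatives run was a member or partner called: 19 for Slc7a6os and Dnm3os, 18 for Dnm3 and, without a filter, 15 for Slc7a6, Hoxb3os and Hoxb3. These include DESeq2, which gave no adjusted p for Dnm3os, Dnm3, Slc7a6, Hoxb3os and Hoxb3 and so could not call them. Meanwhile the number of genes called over the table, 15, became 63 without a filter, 202 with DESeq2, 9 with robust estimation and 58 with the replicate block, and 0 (without ghrelin 1 or ghrelin 3) to 32 (without ghrelin 4) with single libraries left out. Leaving out PBS 3 (5), PBS 5 (24), PBS 6 (23), ghrelin 2 (9) or ghrelin 6 (6) also moved it. Without ghrelin 1 and ghrelin 3, 1675 and 1536 genes had an unadjusted p under 0.05 in turn. Without a filter the 63 calls became 714 with the replicate block, 210 with DESeq2, and 35 (without ghrelin 3) to 201 (without ghrelin 4) with a library left out (PBS 5 165, PBS 6 120, ghrelin 2 95, ghrelin 1 42). The 1 pair called for its ratio became 0 with a prior count of 0.5 or the replicate block, and 0 to 4 (without PBS 1) with a library left out; the 0 pairs called for their correlation became 3 without centring and 2 within 1 kb. The causes were not tested. The near-zero log2 fold change of Slc7a6os turned positive with upper-quartile factors (0.011), a minimum of 1 CPM in 6 libraries (0.00050) and the replicate block (0.00021), and ran from -0.027 (without PBS 3) to 0.031 (without PBS 2) with libraries left out. Signs also turned, with no call, when single libraries were left out of Slc7a6 (-0.28 to 0.21), Dnm3os (-0.024 to 0.23), Dnm3 (-0.23 to 0.17) and Hoxb3 (-0.20 to 0.24). That of Hoxb3os stayed negative in 15 of 15 alternatives (-1.13 to -0.44). With libraries left out, signs turned also for r of Dnm3os and Dnm3 (-0.12 to 0.16), and for the log2 ratio differences of Dnm3os over Dnm3 (-0.11 to 0.31), Slc7a6os over Slc7a6 (-0.22 to 0.32) and Slc7a6os over Prmt7 (-0.062 to 0.044). Hoxb3os over Hoxb3 stayed negative in 13 of 13, with exact p-values from 0.0779 upward.

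With differences between same-numbered libraries as the replicate block, r of Dnm3os and Dnm3 was 0.43 (exact permutation p = 0.393), and the block changed no call of a member. Under the minimum of 1 CPM in 6 libraries, the Dnm3 pair gave no value. A limit of 20 counts kept 3 members and 200 kept 2, and the later gene names gave 65. Depth limits Slc7a6, Hoxb3os and Hoxb3 most.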

Other observations

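By GENCODE M21 names, 65 opposite-strand transcripts had 50 or more counts, 62 beyond the 3 described. Of the 65, 30 were classed head-to-head (gene bodies that overlap from their 5′ sides, or 5′ ends within 1 kb), 22 nested, 10 tail-to-tail (the same at the 3′ sides) and 3 apart. In 43 of them exons overlapped those of the partner, so without a stated strand setting the reads of both cannot be told apart with certainty. By edgeR's quasi-likelihood test, 0 of the 44 opposite-strand transcripts and 0 of the 53 partners tested were called, beside 0.106% of all tested genes. At an unadjusted p under 0.05 were 5 and 6, beside 13.4% of all tested genes.

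Most abundant per exonic kb were Sardhos (18.7 CPM per kb), Wdr83os (18.4), Hectd2os (15.7), Epb41l4aos (10.9) and Cebpzos (8.45). Sardhos, nested in the gene of the mitochondrial enzyme sarcosine dehydrogenase, stood at 3.75 ± 1.59 CPM for PBS and 6.15 ± 2.97 CPM for ghrelin (SD, n = 6 each), a log2 fold change of 0.72 (SE 0.32, edgeR adjusted p = 0.348). Of the exonic bases of Sardhos, 70.9% lie under exons of that gene, Sardh, which stood at 138 CPM per kb. Hnf4aos, whose gene body overlaps from the 5′ side that of the hepatocyte transcription factor Hnf4a, had a log2 difference of 0.11 (SE 0.16) and its partner one of -0.16 (SE 0.12), neither called. Prox1os stood at -0.06 (SE 0.16) on that scale.

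The smallest unadjusted p-values belonged to Ctcflos, with 0.0101 and an edgeR adjusted p of 0.247, and Sorbs2os, with 0.0139. Across 38 pairs with both members tested, r between libraries ranged on both sides of 0 with a median of 0.12. Of them 0 passed the adjustment, as did 0 of all 3422 pairs.

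One pattern was noticed in the data and not tested. Of the 44 transcripts, 31 had a positive log2 fold change, with a median of 0.18, while 22 of 53 partners did, with a median of -0.04. Over all tested genes that M21 types as antisense, 164 of 214 (76.6%) were positive, with a median of 0.22, beside 7087 of 14170 genes in all. Most of the 44 are typed as antisense and so are among the 214, which makes the counts overlap. For 123 long intergenic RNAs the median was 0.06. For 1505 protein-coding genes within the middle range of antisense levels (0.728 to 2.45 CPM) it was 0.02, with 52.5% positive. The mean log2 CPM of the 214 was 0.66, 0.32, 0.66, 0.43, 0.29 and 0.53 in PBS 1 to PBS 6, and 0.66, 0.54, 0.85, 0.72, 0.75 and 0.79 in ghrelin 1 to ghrelin 6. The groups overlapped, in that PBS 1 and PBS 3 were as high as ghrelin 1 and above ghrelin 2. The 4 neutrophil markers summed to 0.816 to 4.40 CPM with ghrelin and 3.76 to 9.33 CPM in PBS, ranges that overlap, and their part in this pattern was not tested.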
